A study of Homo sapiens with 18 samples.

Results

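The genes described here are 9 immediate early genes, EGR1, FOSL1, FOS, JUN, JUNB, JUND, IER2, IER3 and DUSP6, of the 35616 genes in a table of expression values from HUDEP-2 cells. They were chosen by name with their levels and differences in all 6 groups of this table already known, so these values are given as a description, with no test. HUDEP-2 is an immortalized human erythroid progenitor line made from umbilical cord cells, and it matures toward red cells when its culture conditions are changed. The unedited line (WT) was compared with cells of the same line in which HBB, the beta-globin gene, was knocked out (HBBko). Both were taken at 3 stages: undifferentiated, 48 h into differentiation and 5 d into it. This gives 6 groups of 3 libraries each. All 6 groups therefore share the HUDEP-2 background, and the labels name no added drug or transgene. The number of HBBko clones is not given there, nor whether the 3 libraries of a group were separate cultures, so the spread below may be technical.

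Immediate early genes are switched on within minutes of a signal, without new protein synthesis, and their messages are short-lived. Growth factor receptors reach many of them through the RAS, RAF, MEK and ERK kinases, which activate serum response factor and its ETS-family partners at CArG boxes. In erythroid cells the receptors KIT and EPOR, which bind stem cell factor and erythropoietin, signal in part through this cascade. FOS and FOSL1 encode FOS-family proteins that bind DNA only as partners of JUN-family proteins. JUN, JUNB and JUND encode the JUN family, and the paired factor is called AP-1. EGR1 encodes a zinc finger transcription factor. IER2 and IER3 were named for their early response. DUSP6 encodes a phosphatase that removes the activating phosphates from ERK, and its gene is itself raised by ERK signalling.

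The 9 genes are compact. In the GENCODE 29 annotation of GRCh38, EGR1 lies at chr5:138465490-138469315, FOSL1 at chr11:65892049-65900573, FOS at chr14:75278774-75282230 and JUN at chr1:58780788-58784327. JUNB (chr19:12791496-12793315), IER2 (chr19:13150415-13154908) and JUND (chr19:18279760-18281622) share chromosome 19. IER3 lies at chr6:30743199-30744554 and DUSP6 at chr12:89347232-89353271. The transcript used for JUN, JUNB, JUND and IER2 has 1 exon, and such transcripts made up 2.32% of the 10968 protein-coding genes tested. All 9 genes span less than the median of those genes, 30779 bases. The pentamer ATTTA, the core of AU-rich elements that speed message decay, was present in the 3′ untranslated region of 8 of the 9, with IER2 the exception. Its density was not high as a group: the median of the 9 was 1.49 per kb against 1.5 per kb over the coding genes tested, with IER3 (8.11 per kb), FOS (6.18 per kb) and JUNB (3.98 per kb) above the rest.

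The 250 bases before the gene start are shown for the 4 members that differed by more than 1 on the log2 scale between HBBko and WT at some stage and have a promoter entry in RefSeq (build GRCh38.p14), because the factors named above are known to bind near the start of several early genes. Letters run 5′ to 3′ along the gene's strand, and capitals mark matches to the motifs named below.
EGR1 (chr5:138465229-138465478, plus strand): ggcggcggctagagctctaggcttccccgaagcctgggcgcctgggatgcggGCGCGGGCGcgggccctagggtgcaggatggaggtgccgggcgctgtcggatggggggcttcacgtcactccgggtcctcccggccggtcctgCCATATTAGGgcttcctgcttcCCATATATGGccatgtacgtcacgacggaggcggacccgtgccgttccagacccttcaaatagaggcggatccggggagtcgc
FOS (chr14:75278578-75278827, plus strand): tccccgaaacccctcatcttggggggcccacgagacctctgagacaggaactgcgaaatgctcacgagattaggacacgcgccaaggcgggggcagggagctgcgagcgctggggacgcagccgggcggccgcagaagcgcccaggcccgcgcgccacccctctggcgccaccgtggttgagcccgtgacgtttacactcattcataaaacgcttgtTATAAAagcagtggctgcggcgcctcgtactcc
JUN (chr1:58784048-58784297, minus strand): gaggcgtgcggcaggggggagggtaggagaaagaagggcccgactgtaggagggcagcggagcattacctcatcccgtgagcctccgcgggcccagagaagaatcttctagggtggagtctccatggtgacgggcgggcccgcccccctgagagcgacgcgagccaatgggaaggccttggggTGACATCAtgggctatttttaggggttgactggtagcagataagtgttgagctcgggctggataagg
DUSP6 (chr12:89352502-89352751, minus strand): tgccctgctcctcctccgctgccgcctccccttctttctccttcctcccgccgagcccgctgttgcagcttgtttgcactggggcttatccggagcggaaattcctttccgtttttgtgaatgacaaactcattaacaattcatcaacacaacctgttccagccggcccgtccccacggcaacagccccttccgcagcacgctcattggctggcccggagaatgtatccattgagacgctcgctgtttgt

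Both strands of 7 of the members' promoters were searched for 6 motifs, and no match overlapped another. The RefSeq start is not always that of GENCODE: the JUN and DUSP6 windows lie inside the GENCODE span of their gene, and the FOS window overlaps its beginning. EGR1 had 2 CArG boxes, from -105 to -96 and from -83 to -74 relative to the RefSeq start, and 1.16% of 35116 promoters of the same length held at least 1 (0.969% of those of tested genes). EGR1 also held GCGNGGGCG, the site read by EGR proteins (8.41% of promoters, 13.0% of those of tested genes). JUN held TGACNTCA, the longer AP-1 and ATF site, from -67 to -60, and JUND held it from -200 to -193 (6.87% and 5.62%). FOS held TATAAA from -33 to -28 and JUNB from -31 to -26 (10.7% and 5.52%). IER2 held CCGGAA, the core of many ETS sites, on the opposite strand from -26 to -21 (14.5% and 24.5%). The short AP-1 site TGANTCA (6.57% and 4.11%) matched in none of the 7, and DUSP6 matched none of the 6 motifs in this window.

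The values are scaled TPM, transcript abundances that were also scaled between libraries, and TPM already divides by transcript length. Library sums ran from 783213 to 1508342, reads per library are not given, and the spread between libraries is the measure of precision. HBB, the knocked-out gene, was at 4597.6 to 4983.4 scaled TPM in undifferentiated HBBko against 12453.8 to 22375.9 in WT, 22101.5 to 24264.9 against 99196.2 to 132741.4 at 48 h, and 69004.3 to 72650.4 against 427628.3 to 458718.7 at 5 d, so its message was reduced and not absent. The table names its columns in another way than the sample titles, and they were matched to the lines by name. All 14 erythroid markers averaged at least 1 scaled TPM in every group. Lymphoid markers (9 genes) and stromal and endothelial markers (10 genes) summed to at most 1.16 scaled TPM. The 13 myeloid markers summed to 36.1 to 44.4 in undifferentiated cells and to at most 3.12 later. The 10 megakaryocyte markers summed to at most 7.52 up to 48 h, and at 5 d to 24.7 to 27.2 in WT and 29.9 to 36.6 in HBBko. Single markers of the non-erythroid lists, PF4, PPBP, CLC, S100A9, CD3E, CD2 and MS4A1, were at 0 in every library. The mast cell, basophil and eosinophil markers (7 of 10 passed the low-value filter) summed to 684.0 to 935.8 in undifferentiated WT and 1095.8 to 1297.1 in undifferentiated HBBko, and to at most 74.8 later. In these bulk libraries fewer cells of a type and less RNA per cell cannot be told apart. In every group most erythroid markers were higher in replicate 3 than in the mean of the group's other libraries. In WT at 48 h 14 of 14 were higher (median log2 difference 0.22), as were 7 of the 9 early genes (median 0.19). The counts were 10 of 14 in WT at 5 d and 12, 11 and 12 of 14 in HBBko by stage, with medians from 0.03 to 0.11. Replicate 3 of undifferentiated WT stood furthest apart, with 13 of 14 erythroid markers higher and a median of 0.52. Correlations between its group's libraries fell to 0.987, against 0.995 or more in the other groups. Without it the HBBko minus WT log2 differences of undifferentiated cells were 1.25 in FOSL1, 0.49 in JUN, 0.07 in JUNB, 0.24 in JUND, 0.00 in IER3 and 0.11 in DUSP6, and those of EGR1, FOS and IER2 stand beside their values below.

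All 9 genes were measured at 1.03 scaled TPM or more in all 18 libraries. They fell into 3 tiers of level. JUNB and JUND ranked above 85% of the 12005 tested genes in every group, from 58.7 to 415.3 scaled TPM. IER2 followed at 28.6 to 76.8 scaled TPM. The other 6 genes stayed between 1.03 and 15.1 scaled TPM.

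**Figure D1:**
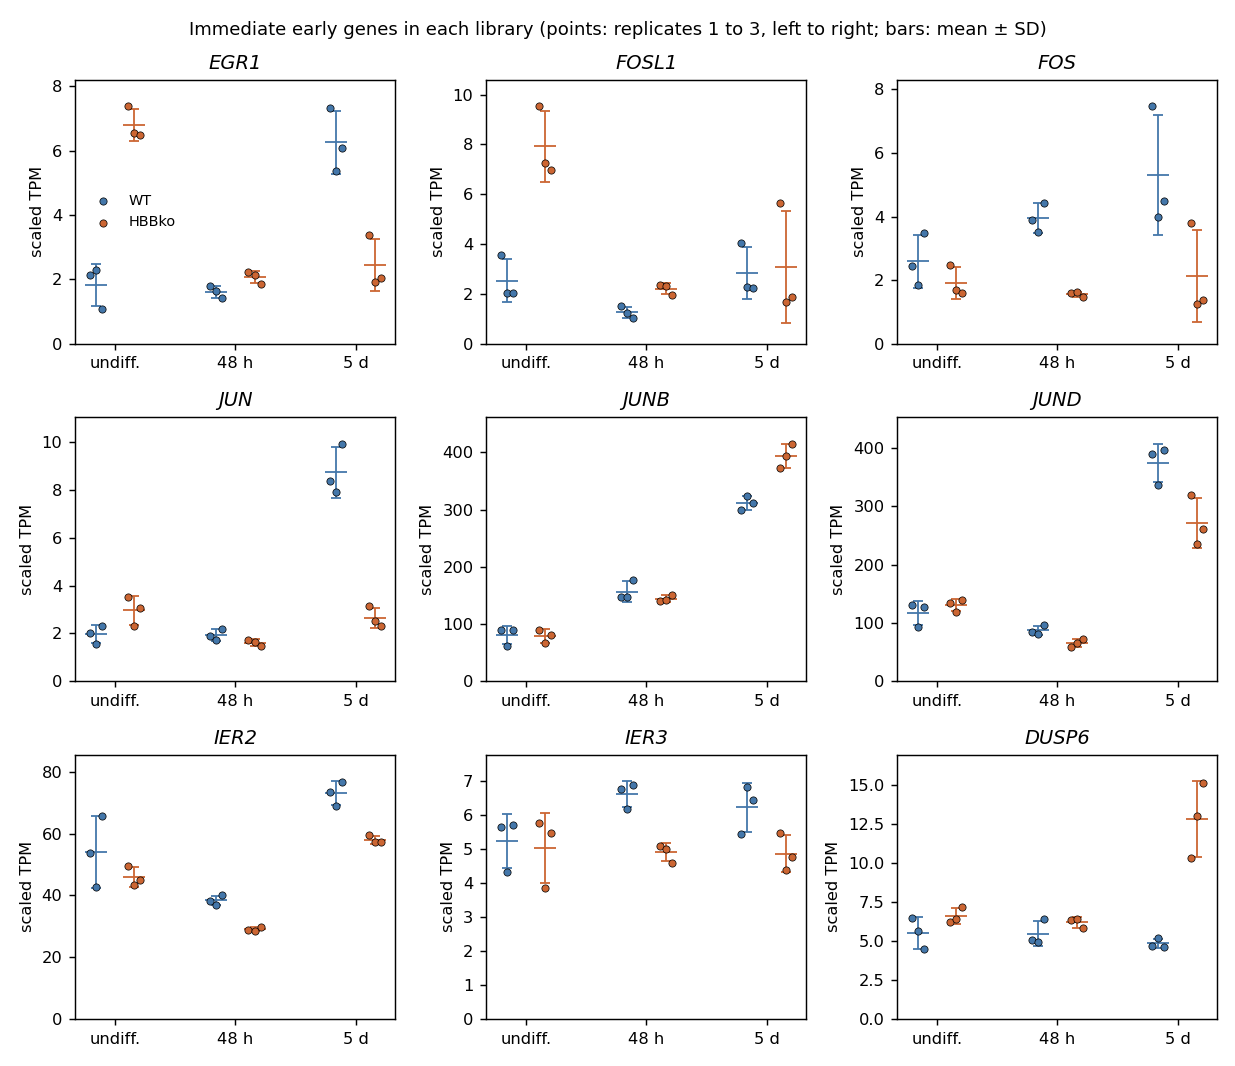
Scaled TPM of the 9 genes in each library (vertical axes start at 0), by stage, for WT (blue) and HBBko (orange). Points are libraries and bars show mean ± SD (n = 3). EGR1 is high in undifferentiated HBBko and in WT at 5 d, while DUSP6 is high in HBBko at 5 d alone, at 10.3 to 15.1 scaled TPM.

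FOSL1 and FOS, the FOS-family members, moved apart between the lines. FOSL1 was at 3.55, 2.05 and 2.02 scaled TPM in the 3 undifferentiated WT libraries and at 9.54, 7.25 and 6.97 in HBBko. The HBBko libraries all lay above the WT libraries, with means 3.12-fold apart and a difference of 1.35 ± 0.27 (SE) in log2(scaled TPM + 1). At 48 h FOSL1 was lower in both lines, at 1.5, 1.25 and 1.03 in WT and 2.37, 2.3 and 1.95 in HBBko, and the groups still did not overlap (log2 difference 0.51 ± 0.27, SE). At 5 d it was at 4.04, 2.26 and 2.23 in WT and at 5.66, 1.68 and 1.87 in HBBko. These groups overlapped, and the log2 difference of -0.02 ± 0.27 (SE) became -0.44 without replicate 1 of HBBko and 0.22 without replicate 1 of WT. In order of mean level, FOSL1 was highest in undifferentiated HBBko, apart from all other groups, and lowest in WT at 48 h, also apart from its neighbour. The 4 groups between them, with means from 3.07 down to 2.21 scaled TPM, each overlapped the next.

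FOS had the opposite tendency. In undifferentiated cells it was at 2.43, 1.86 and 3.48 scaled TPM in WT and 2.48, 1.68 and 1.59 in HBBko, and the groups overlapped (log2 difference -0.29 ± 0.25, SE, or -0.12 without replicate 3 of WT). At 48 h the WT libraries were at 3.89, 3.5 and 4.44 and the HBBko libraries at 1.59, 1.62 and 1.47. Every HBBko library was below every WT library, with means 2.53-fold apart. At 5 d WT was at 7.47, 3.97 and 4.5 and HBBko at 3.81, 1.25 and 1.37. The groups did not overlap, although replicate 1 of HBBko nearly reached the lowest WT library, and the log2 difference was -1.06 ± 0.25 (SE) with it and -1.41 without it.

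JUN was the JUN-family gene with the largest difference. It was low in 5 of the 6 groups, with means from 1.62 to 2.97 scaled TPM, and stood out in WT at 5 d. There its libraries were at 8.39, 7.9 and 9.93, against 3.13, 2.52 and 2.32 in HBBko. The WT mean was 3.29-fold the HBBko mean and the log2 difference was -1.41 ± 0.13 (SE). From 48 h to 5 d the JUN mean changed 4.54-fold in WT and 1.65-fold in HBBko. Before differentiation the order was reversed: 2.04, 1.57 and 2.31 in WT and 3.54, 2.32 and 3.06 in HBBko, so that the lowest HBBko library (2.32) lay only just above the highest WT library (2.31, log2 difference 0.41 ± 0.13, SE). At 48 h the lines overlapped.

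JUNB and JUND, which were far more abundant, kept different time courses. JUNB was at 89.7, 62.4 and 89.5 scaled TPM in undifferentiated WT, 146.6, 146.6 and 177.3 at 48 h and 300.0, 323.8 and 310.9 at 5 d. In HBBko it was at 90.0, 66.9 and 80.4, then 139.8, 142.5 and 150.9, then 373.5, 393.2 and 415.3. It was higher at each successive stage in both lines, with no overlap between them, and the lines overlapped until 5 d, when each HBBko library was above each WT library (log2 difference 0.34 ± 0.12, SE, or 0.67 with libraries at equal sums). JUND was lowest at 48 h. It was at 130.9, 93.0 and 128.3 in undifferentiated WT, 85.5, 81.5 and 96.6 at 48 h and 390.6, 337.7 and 397.0 at 5 d. In HBBko it was at 134.9, 119.5 and 139.1, then 58.7, 65.8 and 72.1, then 319.4, 235.5 and 261.5. The undifferentiated and 48 h libraries overlapped in WT and not in HBBko, and the 5 d libraries were above both. HBBko was below WT without overlap at 48 h (log2 difference -0.42 ± 0.13, SE) and at 5 d (-0.47 ± 0.13), where equal sums brought the difference to -0.13.

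The ratio of subunits within a library does not depend on how libraries were scaled to each other. JUNB over JUND was 0.671 to 0.698 in undifferentiated WT, 1.71 to 1.84 at 48 h and 0.768 to 0.959 at 5 d. In HBBko it was 0.56 to 0.667, then 2.09 to 2.38, then 1.17 to 1.67. JUND was thus the more abundant message in every undifferentiated library and JUNB in every 48 h library. At 5 d JUNB led in the 3 HBBko libraries and JUND in the 3 WT libraries. FOSL1 over FOS was 3.85 to 4.38 in undifferentiated HBBko against 0.581 to 1.46 in WT, 1.33 to 1.49 against 0.233 to 0.385 at 48 h, and 1.35 to 1.49 against 0.494 to 0.57 at 5 d. At each stage every HBBko library was above every WT library. JUN made up 0.916% to 1.05% of the summed JUN family in undifferentiated WT and 1.23% to 1.55% in HBBko. At 48 h the lines overlapped, at 0.744% to 0.802% and 0.65% to 0.863%. At 5 d the order was the other way round, 1.18% to 1.38% in WT and 0.342% to 0.45% in HBBko. These ratios use the same values as the descriptions above and are not further evidence for them.

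**Figure D2:**
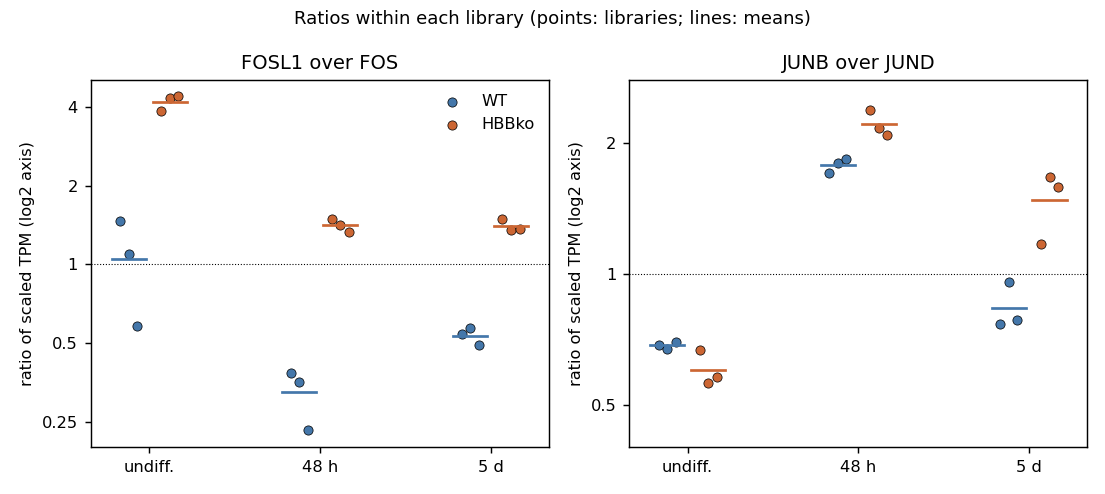
Ratio of scaled TPM within each library (log2 axis) for FOSL1 over FOS (left) and JUNB over JUND (right), by stage; points are libraries and lines are means of 3. Within each stage all HBBko points lie above the WT points on the left, and JUNB over JUND passes 1 in all 48 h libraries and, at 5 d, in HBBko only.

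EGR1 had a pattern that reversed between the lines. It was at 2.15, 2.28 and 1.08 scaled TPM in undifferentiated WT and 7.38, 6.55 and 6.48 in HBBko. The groups were well apart, with means 3.71-fold apart and a log2 difference of 1.49 ± 0.16 (SE), or 1.28 without replicate 3 of WT. At 48 h EGR1 was at 1.78, 1.63 and 1.43 in WT and 2.24, 2.15 and 1.87 in HBBko, apart by a small margin (0.24 ± 0.16, SE). At 5 d it was at 7.31, 5.38 and 6.08 in WT and 3.38, 1.93 and 2.03 in HBBko. The HBBko libraries were then all lower, with the WT mean 2.56-fold the HBBko mean and a log2 difference of -1.09 ± 0.16 (SE). In order of mean level, undifferentiated HBBko (6.8 ± 0.497 scaled TPM, SD, n = 3) and WT at 5 d (6.26 ± 0.977) overlapped each other. The other 4 groups, from 2.45 down to 1.61, each overlapped their neighbour in the order and lay below both.

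IER2 and IER3 differed less. IER2 was at 53.7, 42.6 and 65.9 scaled TPM in undifferentiated WT and 49.6, 43.3 and 45.0 in HBBko, which overlapped (log2 difference -0.21 ± 0.10, SE, or -0.06 without replicate 3 of WT). At 48 h it was at 38.3, 36.9 and 40.0 in WT and 28.8, 28.6 and 29.8 in HBBko. At 5 d it was at 73.4, 69.0 and 76.8 in WT and 59.5, 57.4 and 57.2 in HBBko. HBBko was lower without overlap at both later stages, by -0.39 ± 0.10 and -0.33 ± 0.10 (SE) on the log2 scale. Over 4 other scalings the differences ran from -0.43 to -0.25 at 48 h and from -0.36 to 0.01 at 5 d. The values -0.25 and 0.01 came from bringing each library to an equal sum, the only 1 of the 4 that changed the sign at 5 d. IER3 kept within 3.86 to 6.91 scaled TPM throughout. The lines were apart at 48 h, when WT was at 6.77, 6.18 and 6.91 and HBBko at 5.1, 5.02 and 4.61 (log2 difference -0.37 ± 0.12, SE), and overlapped at the other stages.

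DUSP6 was the member that stood out in HBBko at 5 d. It was at 6.49, 5.6 and 4.45 scaled TPM in undifferentiated WT, 5.08, 4.92 and 6.41 at 48 h and 4.69, 5.17 and 4.63 at 5 d, with no stage apart from the next. In HBBko it was at 6.21, 6.43 and 7.15, then 6.31, 6.43 and 5.8, then 10.3, 13.0 and 15.1. The HBBko libraries at 5 d were above every other library, and their mean was 2.66-fold the WT mean (log2 difference 1.23 ± 0.13, SE). EGR1 over DUSP6, a ratio of a transcription factor and a phosphatase gene that ERK signalling is known to raise, was 0.242 to 0.406 in undifferentiated WT and 0.907 to 1.19 in HBBko. At 48 h the lines overlapped, at 0.223 to 0.351 and 0.322 to 0.355. At 5 d the order was reversed, with HBBko at 0.134 to 0.328 and WT at 1.04 to 1.56.

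**Figure D3:**
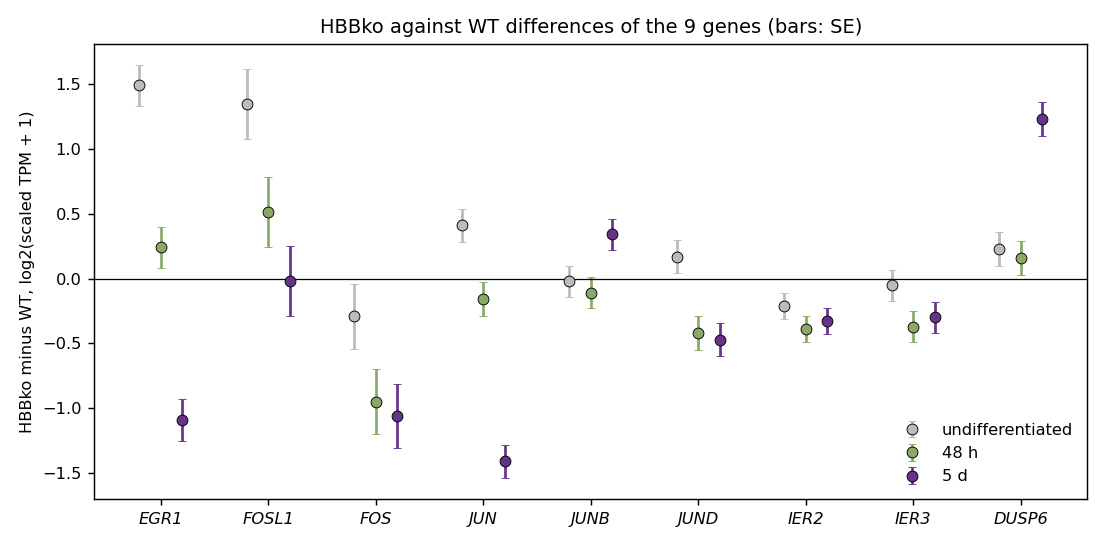
HBBko minus WT difference in mean log2(scaled TPM + 1) for each of the 9 genes at 3 stages; bars are SE of the fit over all 18 libraries. EGR1 goes from 1.49 in undifferentiated cells to -1.09 at 5 d, JUN reaches -1.41 at 5 d and DUSP6 reaches 1.23.

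Counted over the 9 genes in undifferentiated cells, 3 had HBBko libraries all above WT (EGR1, FOSL1 and JUN) and none all below, where 22.8% of tested genes were all above and 23.4% all below. At 48 h, 2 were above (EGR1 and FOSL1) and 4 below (FOS, JUND, IER2 and IER3), against 29.5% and 22.4% of tested genes. At 5 d, 2 were above (JUNB and DUSP6) and 5 below (EGR1, FOS, JUN, JUND and IER2), against 31.1% and 28.7% of tested genes. Nothing is read from these shares, since the genes were chosen with their values in view. The median log2 difference of the 9 was 0.17, -0.16 and -0.33 at the 3 stages, beside -0.01, 0.02 and 0.02 over all genes tested. The HBBko minus WT difference was smaller or more negative at 48 h than in undifferentiated cells in each of the 9 genes. The change ran from -0.08 ± 0.18 (SE, DUSP6) and -0.10 ± 0.17 (JUNB) to -1.25 ± 0.23 (EGR1). Its median was -0.57, beside 0.02 over all genes tested. The share of all genes that moved down was not counted, and nothing is read from the 9. Without replicate 3 of undifferentiated WT, the DUSP6 difference was 0.11 in undifferentiated cells, below its 0.16 at 48 h. With libraries at equal sums the change was 0.01 in DUSP6 and 0.00 in JUNB, and it stayed below 0 in the other 7. From 48 h to 5 d it moved by -1.33 in EGR1, -1.25 in JUN and 1.08 in DUSP6. The authors' deposited tables give the HBBko against WT log2 fold change of EGR1 as 1.95 (undifferentiated), 0.36 (48 h) and -1.39 (5 d). In the authors' deposited tables the sign matched the one computed here for all 9 genes at all 3 stages. Those tables belong to the same series, so the match is not further evidence for the differences.

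Over time in WT, 3 of the 9 genes were apart and higher at 48 h than before differentiation (FOS, JUNB and IER3) and 2 were lower (FOSL1 and IER2), against 23.2% and 40.1% of tested genes. From 48 h to 5 d, 6 were higher (EGR1, FOSL1, JUN, JUNB, JUND and IER2) and none lower, against 32.5% and 51.9% of tested genes. In HBBko, 1 was higher at 48 h (JUNB) and 5 lower (EGR1, FOSL1, JUN, JUND and IER2), against 30.3% and 45.8%. From 48 h to 5 d, 5 were higher in HBBko (JUN, JUNB, JUND, IER2 and DUSP6) and none lower, against 32.4% and 52.0%. EGR1 changed 3.88-fold from 48 h to 5 d in WT and 1.17-fold in HBBko, where the stages overlapped. The median change of all genes from 48 h to 5 d in WT was -0.20 as deposited and -0.70 with each library rescaled to an equal sum. It was -0.16 with globins removed, -0.05 with median-of-ratios scaling and -0.01 with quantile normalization. The changes of JUNB and JUND from 48 h to 5 d kept their direction under all 4 other scalings, at 0.35 to 1.17 and 1.44 to 2.26 in WT. Those of FOS in WT and of EGR1, FOSL1 and FOS in HBBko changed sign under the equal sum, and the small changes of IER3 in both lines and of DUSP6 in WT changed sign under 2 or 3 of the 4.

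In HBBko at 5 d, replicate 1 carried more of several early gene messages than the other libraries of its group. FOSL1 and FOS exceeded the mean of the other libraries by 1.26 and 1.06 in log2(scaled TPM + 1), where 0.242% of tested genes exceeded it by more than 1. Of the other immediate early genes described below, FOSB, a further FOS-family gene, was at 3.22 scaled TPM against 0.488 and 0.53, ZFP36 at 34.9 against 15.1 and 14.5 and CSRNP1 at 4.73 against 1.61 and 1.96; they were picked out after their values were seen. Erythroid markers were higher in this library for 7 of 14, with a median difference of -0.01. The heat shock genes were higher for 9 of 14, with a median of 0.01. FOSL1 was also highest in replicate 1 in 6 of 6 groups, and EGR1 in 5 of 6. Whether replicate numbers mark a shared day or handling is not stated, and a part of handling in these values was not tested.

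**Figure D4:**
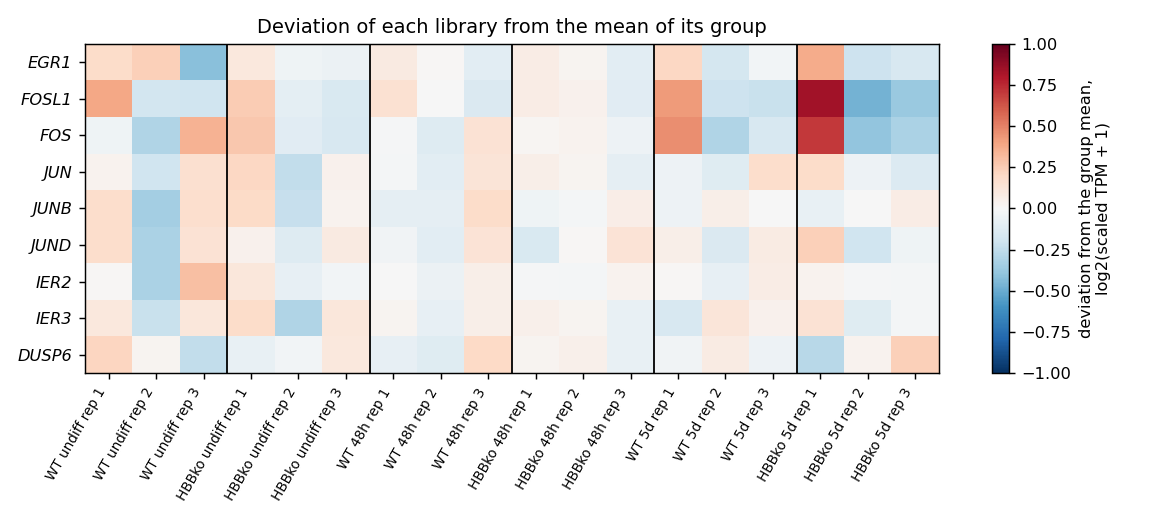
Deviation of each library from its group mean, in log2(scaled TPM + 1), for the 9 genes (rows) in 18 libraries (columns, groups divided by lines); red is above the mean and blue below. The strongest red cells are FOSL1 and FOS in replicate 1 of HBBko at 5 d.

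The genes whose log2(scaled TPM + 1) followed each member most closely over the 18 libraries were named by Pearson's r, as a description. The 18 points share 6 groups and their scaling. For EGR1 these were HSPA5 (r = 0.927), which encodes the main chaperone of the endoplasmic reticulum, LARP4B and ASNSD1. HSPA5 averaged 59.5, 62.0 and 168.6 scaled TPM across the WT stages and 124.7, 77.3 and 76.6 across the HBBko stages, the same crossing as EGR1. For JUN they were GNA12 (0.979), a G protein subunit gene, NTAN1 and VPS37A. For JUNB they were CROCCP2, AL031432.2 and RAB3IL1 (0.991 each). For JUND they were C2CD2L (0.984), HEXIM1, an inhibitor of transcription elongation, and SQSTM1, which encodes the autophagy receptor p62. For FOS they were LASP1 (0.853), KLF10 and CARNS1, and for FOSL1 RBM15B (0.890), ELMSAN1 and NIPA2. For IER2 they were TRIM11 (0.956), TBC1D3B and TMEM222, and for IER3 PLK2 (0.777), HIST2H4A and ASB6. For DUSP6 they were HIST2H2BC (0.894), CDC42BPB and GMPPB. Among the 9 themselves, the closest were JUND and IER2 (0.92), JUN and JUND (0.83), JUN and IER2 (0.77) and EGR1 and FOSL1 (0.76).

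Other immediate early genes were taken from a list of 47, of which 34 passed the low-value filter. They were tested with limma over all 12005 genes, with adjusted p under 0.05 as the threshold. This list and those below were also chosen with earlier results of these data known. Their shares are set beside those of all genes as a description, and nothing is read from an excess. In undifferentiated cells 6 rose and 7 fell in HBBko relative to WT (38.2% of the 34, where 43.3% of all genes tested passed). At 48 h none rose and 10 fell (29.4%, against 18.7%). At 5 d 2 rose and 19 fell (61.8%, against 51.3%). Below, ± after a log2 difference is the SE of the fit and ± after a level is the SD of 3 libraries. The list's median log2 difference was -0.07, -0.14 and -0.34 at the 3 stages, beside -0.01, 0.02 and 0.02 over all genes. Of the 10 genes lower at 48 h and the 19 lower at 5 d, 9 were the same genes. ATF3, CEBPB and KLF10 were lower at all 3 stages. When libraries were rescaled to equal sums, 36 of the list were tested, and 0 rose and 8 fell at 48 h, and 8 rose and 15 fell at 5 d. Without replicate 1 of HBBko at 5 d, 2 rose and 20 fell. Without replicate 3 of undifferentiated WT, 7 rose and 6 fell in undifferentiated cells.

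ATF3, a stress-induced bZIP factor that can pair with JUN proteins, was at 0.691 ± 0.167 scaled TPM in undifferentiated HBBko and 6.48 ± 3.6 in WT (SD, n = 3). Its log2 difference there was -2.05 ± 0.23 (SE, limma adjusted p = 4.2e-06). It was also lower at 48 h, by -1.54 ± 0.23 (adjusted p = 0.00021). KLF10, a TGF-beta-induced repressor, was at 16.2 ± 0.496 in HBBko and 39.0 ± 5.91 in WT at 48 h, and at 16.6 ± 1.89 and 84.4 ± 7.61 at 5 d (log2 difference -2.29 ± 0.12, limma adjusted p = 3.7e-10). ZFP36, which encodes tristetraprolin, a protein that binds AU-rich elements and destabilizes messages, was at 6.33 ± 0.14 against 12.8 ± 1.9 at 48 h and 21.5 ± 11.6 against 71.6 ± 15.7 at 5 d. Its 48 h call was lost in 2 of 16 alternatives, without replicate 3 of WT at 48 h (limma adjusted p = 0.071) and with no filter on low values, and p over all alternatives ran from 0.00028 to 0.071. The call was not lost at 5 d, where the log2 difference was -1.78 ± 0.24. CEBPB, a bZIP factor, was lower in undifferentiated HBBko by -1.41 ± 0.17 and at 48 h by -0.86 ± 0.17. TNFAIP3, an NF-kappaB-induced inhibitor of that pathway (-1.30 ± 0.20), and FOSL2, a further FOS-family gene (-1.24 ± 0.13), completed the largest differences at 5 d. Among genes that rose in undifferentiated HBBko, RHOB, a small GTPase, was at 33.3 ± 7.1 against 8.04 ± 1.88 in WT (log2 difference 1.92 ± 0.15, limma adjusted p = 1.2e-07). DUSP2, a nuclear ERK phosphatase, was at 14.9 ± 1.28 against 6.75 ± 1.63.

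**Figure D5:**
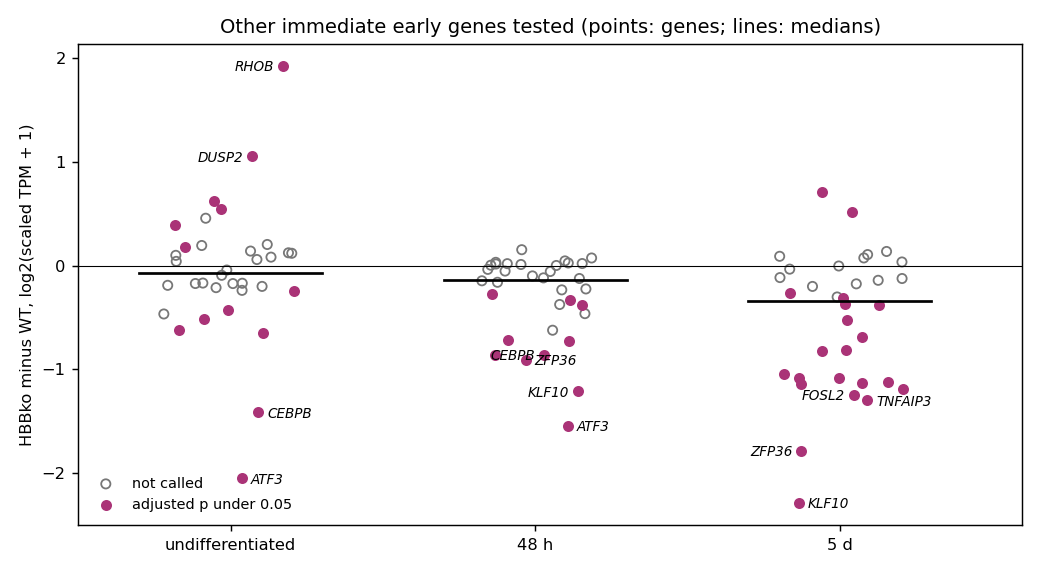
HBBko minus WT difference in log2(scaled TPM + 1) for the 34 other immediate early genes tested, at 3 stages; filled points had a limma adjusted p under 0.05, open points did not, and lines are medians. Filled points lie on both sides of 0 in undifferentiated cells and, apart from 2, below 0 at 5 d.

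The change of the line difference between stages was tested in the same limma fit. From undifferentiated cells to 48 h, 7 of the 34 genes moved down and none up (20.6%, where 13.2% of all genes tested passed). RHOB (-1.98 ± 0.21) and DUSP2 (-1.03 ± 0.19) moved most. The 7 became 4 without replicate 1 of undifferentiated HBBko, and 4 without replicate 1 of HBBko at 48 h. From 48 h to 5 d, 10 moved down and 1 up (32.4%, against 24.6%), with TRIB1, a pseudokinase gene, at -1.15 ± 0.25 and KLF10 at -1.08 ± 0.17. TRIB1 was at a low level in HBBko at 5 d, 0.732, 0.164 and 0.159 scaled TPM, below the pseudocount of 1. Over time within WT, 13 rose and 13 fell by 48 h (76.5%, against 64.9% of all genes) and 22 rose and 7 fell from 48 h to 5 d (85.3%, against 80.2%). ATF3 and CEBPB changed by 3.38 ± 0.23 and 2.96 ± 0.17 on the log2 scale in that step, and HES1, a Notch target, fell by 3.16 on the log2 scale by 48 h. Within HBBko, 10 rose and 18 fell by 48 h (82.4%, against 65.2%) and 18 rose and 9 fell from 48 h to 5 d (79.4%, against 79.7%).

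Genes of ERK feedback and output came from a list of 25 with 18 tested. DUSP1, DUSP2, DUSP5 and PHLDA1 of this list are also in that of the other immediate early genes. In undifferentiated cells 8 rose in HBBko and none fell, at 48 h none rose and SPRY2 alone fell, and at 5 d 1 rose and 9 fell. These were 44.4%, 5.56% and 55.6% of the list, against 43.3%, 18.7% and 51.3% of all genes tested, so the first and last shares were near those of all genes. The list's median log2 difference was 0.29, 0.03 and -0.33. CCND1, which encodes cyclin D1, was at 51.5 ± 7.27 scaled TPM in undifferentiated HBBko and 22.4 ± 9.05 in WT (log2 difference 1.23 ± 0.19, limma adjusted p = 9.5e-05). DUSP7, an ERK phosphatase gene, was higher by 0.73 ± 0.08 and NAB2, a corepressor that binds EGR1, by 0.70 ± 0.13. At 5 d ERRFI1, an inhibitor of the EGF receptor, was at 6.94 ± 0.987 against 15.7 ± 1.48 (-1.08 ± 0.09, limma adjusted p = 3.4e-08). DUSP8 (-1.09 ± 0.13) and DUSP16 (-0.75 ± 0.10), phosphatases that act mainly on JNK and p38 kinases, were lower. Their levels were low, at 1.07 ± 0.0446 against 3.49 ± 1.23 and 0.838 ± 0.186 against 2.08 ± 0.151 scaled TPM, close to the pseudocount of 1. SPRED1, an inhibitor of RAS signalling, was higher (0.81 ± 0.11), also at a low level (3.43 ± 0.589 against 1.53 ± 0.26). At 48 h SPRY2 was at 0.867 ± 0.0275 against 1.34 ± 0.0509 scaled TPM. The SPRY2 call at 48 h (-0.32 ± 0.10) was lost when any 1 of the 6 libraries was left out, at limma adjusted p from 0.061 to 0.083, and over all alternatives p ran from 0.0094 to 0.13. Under equal sums the 5 d count became 1 higher and 4 lower.

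The kinase cascade and the serum response factors came from a list of 35 genes with 33 tested. In undifferentiated cells 3 rose and 5 fell in HBBko (24.2%, against 43.3% of all genes). SOS2 and SOS1, the exchange factors that load RAS, were lower by -0.43 ± 0.07 and -0.40 ± 0.09. At 48 h 2 passed (6.06%, against 18.7%): EPOR fell (155.2 ± 3.95 against 197.5 ± 11.8 scaled TPM) and KIT rose (41.8 ± 0.271 against 34.5 ± 3.35). At 5 d 3 rose and 13 fell (48.5%, against 51.3%), and the differences of largest size among these were in ELK1, the ETS partner of serum response factor (-1.07 ± 0.11), MAPK3, which encodes ERK1 (-0.83 ± 0.08), SOS1 (-0.77 ± 0.09) and MAP2K1, which encodes MEK1 (-0.60 ± 0.07).

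Of the 14 bZIP partners of AP-1, 8 were tested, and 1 rose and 2 fell in undifferentiated HBBko, 2 fell at 48 h and 5 fell at 5 d with none rising (37.5%, 25.0% and 62.5%, against 43.3%, 18.7% and 51.3% of all genes). FOSL2, ATF3, MAFF and FOSB appear in this list and in that of the other immediate early genes, so their calls are counted under both. The genes that fell at 48 h here were ATF3 and FOSL2. MAFF and MAFK, small MAF genes, differed by -1.14 ± 0.09 and -0.64 ± 0.09 at 5 d. The 18 genes of AU-rich element decay were all tested, and 5 rose and 2 fell in undifferentiated HBBko, 4 rose and 2 fell at 48 h, and 4 rose and 4 fell at 5 d (38.9%, 33.3% and 44.4%, against the same shares of all genes). ZFP36, ZFP36L1 and ZFP36L2 of this decay list are also in that of the other immediate early genes. The decay genes that fell at 48 h were ZFP36 and ZFP36L1. ZFP36L1, a relative of ZFP36, was at 13.8 ± 1.39 against 31.3 ± 3.32 scaled TPM at 5 d (log2 difference -1.12 ± 0.09, limma adjusted p = 1.9e-08). ELAVL1, which encodes the stabilizing protein HuR, was higher in undifferentiated HBBko by 0.38 ± 0.04.

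Heat shock genes, which also respond to handling, were tested at all 3 stages. Of 14 tested, 13 rose in undifferentiated HBBko, 10 at 48 h and 11 at 5 d, and none fell (92.9%, 71.4% and 78.6%, against 43.3%, 18.7% and 51.3% of all genes). Their summed level was 5510.8 to 5729.8 scaled TPM in undifferentiated HBBko against 3419.4 to 4163.9 in WT, 5752.5 to 5824.5 against 4514.1 to 4688.2 at 48 h, and 3314.8 to 3816.4 against 2505.9 to 2620.2 at 5 d. BAG3, a co-chaperone, was at 25.4 ± 2.31 against 9.36 ± 0.543 at 5 d (log2 difference 1.35 ± 0.07, limma adjusted p = 5.1e-10). HSPA1A was higher in undifferentiated HBBko by 1.10 ± 0.12, although HSPA1A and HSPA1B are near-identical copies and their split between the genes is uncertain. The share of mitochondrially encoded messages was 9.75% to 11.4% in undifferentiated WT and 10.1% to 10.4% in HBBko, 5.04% to 5.72% against 7.18% to 7.79% at 48 h, and 1.34% to 1.46% against 2.29% to 2.97% at 5 d. The part of these differences, or of the mast cell and eosinophil markers given above, in the values of the 9 early genes was not tested.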

How the data were processed

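Libraries were made with a TruSeq RNA v2 kit from DNase-treated total RNA, per the labels' protocols. The main table holds a signal per gene that the authors deposited as scaled TPM; kallisto, sleuth and hg38 are named in the submitters' processing notes without versions, and the scaling step is not given in the sources used here. The authors also deposited log2 fold changes, copied only where named as theirs. Table columns were matched to samples by name; the knockout columns carry another prefix than the titles. The analysis had been planned for TPM; the same test was kept on scaled TPM.

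Values were analysed as log2(scaled TPM + 1) with limma 3.58.1 in R 4.3.3 (lmFit, eBayes with trend), all 18 libraries in 1 fit with 12 residual degrees of freedom. The filter was at least 1 scaled TPM in 3 or more libraries, which 12005 genes passed. Tests were two-sided, with Benjamini-Hochberg adjustment over those genes in each of 9 comparisons and a threshold of 0.05. The 9 members and the gene lists were chosen with earlier results of these data known. All members are named, with up to 4 passing genes of largest size per list and comparison (those of the stage comparisons only in part), the 3 nearest genes of each member, and HBB. Depth is unknown, since no counts were used. The fit was tested on simulated data. Ratios and likeness were computed with Python 3.11.15.

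Replicate numbers are shared between groups. Correlations of same-numbered libraries' deviations ran from -0.103 to 0.194 over 15 pairs of groups. They all exceeded 0.1 in 3 pairs: undifferentiated WT with undifferentiated HBBko, undifferentiated WT with WT at 48 h, and WT with HBBko at 5 d. Alternatives were 2 other pseudocounts, 2 other filters, 4 other scalings, a replicate block, a fit of only the groups compared, and each library left out.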

Additional observations from a re-analysis of the deposited data

Results flagged for a closer look

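The HBBko minus WT difference of EGR1 was 1.49 in log2(scaled TPM + 1) in undifferentiated cells and -1.09 at 5 d, with every library of each stage on the side of its difference. EGR1 at 48 h (0.24) and 5 d (-1.09) also lay on opposite sides. JUN was at 0.41 in undifferentiated cells and -1.41 at 5 d. Its undifferentiated lines were only just apart, with the lowest HBBko library at 2.32 scaled TPM and the highest WT library at 2.31. These changes between stages were not tested, since the genes were chosen with these values in view.

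Among the other immediate early genes, the line difference itself changed from undifferentiated cells to 48 h, by limma's interaction term, in RHOB (-1.98, adjusted p = 7.9e-05), DUSP2 (-1.03, adjusted p = 0.0029), FOSL2 (-0.80, adjusted p = 0.012) and ZFP36L2 (-0.77, adjusted p = 0.0038). From 48 h to 5 d it changed, by the same limma test, in TRIB1 (-1.15, adjusted p = 0.003), KLF10 (-1.08, adjusted p = 0.00025), MAFF (-0.91, adjusted p = 6.3e-05) and CSRNP1 (-0.97, adjusted p = 0.033). TRIB1 was below the pseudocount of 1 in HBBko at 5 d, at 0.732, 0.164 and 0.159 scaled TPM. The CSRNP1 call was lost in 11 of 21 alternatives, with limma adjusted p from 0.00055 to 0.1.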

How the results depend on the processing

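Of 1395 alternative values of the 9 members, 1301 moved by less than the replicate spread, 93 moved by more, and 1 changed the sign of a difference whose groups did not overlap: IER2 at 5 d, 0.01 with equal sums. Over all differences, 60 values changed sign, in 22 of 81, each 0.33 or less in size. Of 3174 alternative results of named list genes, 131 lost their call and none changed sign. The undifferentiated count of 5197 became 3021 in a fit of only the groups compared. The 48 h count of 2249 became 4187 with equal sums and 4240 in a fit of only the groups compared, and ran from 1173 (without replicate 3 of WT) to 1755 as libraries were left out. The count of changed line differences by 48 h, 1582, ran from 800 (without replicate 1 of undifferentiated HBBko) to 2448 (without replicate 1 of undifferentiated WT). The 7 other immediate early genes in it ran from 4 to 9 as libraries were left out, and became 10 with equal sums. The cause was not tested.

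With the replicate block, counts of calls moved by less than 1.5 times: 5390, 2494 and 6313 for the line comparisons in order of stage, and no named call was lost. In the 12 pairs of groups outside the 3 that met the criterion, the design gives no pairing. As a hint from the data, 16 of 18 libraries correlated best with their own number. Equal sums moved the median of all genes by more than 0.1: from 0.02 to 0.14 at 48 h and 0.27 at 5 d between the lines, from -0.10 to -0.29 (WT, to 48 h), -0.20 to -0.70 (WT, to 5 d), -0.09 to -0.19 (HBBko, to 48 h) and -0.20 to -0.56 (HBBko, to 5 d). Between the lines at 48 h and 5 d, the median was 0.01 and 0.03 with globins removed. It was 0.02 and -0.01 with median-of-ratios scaling, and 0.02 and 0.03 with quantile normalization. With equal sums the share of calls that were higher went from 50.8% to 84.2% at 48 h and from 51.7% to 86.1% at 5 d. For the changes of the line difference it went from 58.2% to 84.2% (to 48 h) and 46.7% to 80.9% (to 5 d). Between the lines at 48 h and 5 d, this share was 42.3% and 54.8% with globins removed. It was 49.7% and 47.4% with median-of-ratios scaling, and 49.0% and 54.1% with quantile normalization. Within WT it went from 36.1% to 19.0% with equal sums, 46.8% with globins removed, 51.2% with median-of-ratios scaling and 55.7% with quantile normalization (to 48 h), and from 38.4% to 15.7% with equal sums and 49.2% with quantile normalization (to 5 d). Within HBBko it went from 38.5% to 49.5% with median-of-ratios scaling and 55.2% with quantile normalization (to 48 h), and from 37.9% to 19.8% with equal sums and 49.3% with quantile normalization (to 5 d). With no counts, depth limits cannot be set.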

Other observations

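Within groups, deviations of FOSL1 from its group mean went with those of FOS (r = 0.79 over 18 libraries, 12 residual degrees of freedom) and of EGR1 (r = 0.78). This is a description of libraries that share their scaling and may share handling, which is not stated. FOS and JUND were at 0.67 and EGR1 and JUNB at -0.43. The value for FOSL1 and FOS leans on replicate 1 of the 5 d groups, where both were high (0.424 and 0.463 above the group mean in WT, 0.843 and 0.706 in HBBko). In undifferentiated WT and in WT at 48 h, FOSL1 was highest in replicate 1 and FOS in replicate 3. TNFRSF12A, a cytokine receptor gene singled out after its values were seen, was at 5.72 scaled TPM in replicate 1 of HBBko at 5 d against 0.829 and 1.56 in the other libraries, beside the early genes named for that library.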
